A study of Mus musculus with 12 samples.

Results

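The 10 genes described here encode the 5 subunits of the transcription factor NF-κB and 5 inhibitors or co-factors that act on it, out of 49315 genes counted in cultured mouse Müller glia. The genes were named by symbol, not chosen by a threshold on the data, though earlier results of these data were known. Nfkb1, Nfkb2, Rel, Rela and Relb encode the subunits. Nfkbia, Nfkbie, Nfkbiz, Tnfaip3 and Bcl3 encode the inhibitors and co-factors. All 10 passed the filter on low counts. NF-κB subunits pair into dimers that inhibitor proteins of the IκB family hold in the cytoplasm. Cytokine or Toll-like receptors activate the IκB kinase complex, IκB is degraded, and the dimers enter the nucleus. Among the genes they switch on are several of their own subunits and inhibitors, so the mRNA of these genes is often read as feedback of the pathway. In the mouse retina, the pathway in Müller glia is known from studies of injury and inflammation.

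The cells were primary Müller glia, the main glia of the retina, from wild type (WT) mice. They were co-cultured in transwells with the retina's pigment epithelium (RPE), also grown as primary cells. The RPE had been given 100 nM PNU-282987 (PNU), which activates the α7 nicotinic receptor for acetylcholine, or DMSO alone. The 4 groups were glia facing PNU-treated RPE after 2 h, glia facing DMSO-treated RPE after 2 h, glia facing PNU-treated RPE after 6 h and glia facing DMSO-treated RPE after 6 h, with 3 libraries each. All cultures had been passaged 4 times, and the PNU groups carried DMSO as well, which the labels put at 0.1% in one place and 1% in another. Strain and age are not given in the sources used here. The drug was given to the RPE cells, and the RNA is that of the glia. The sample titles call the replicates biological. The labels do not say whether they were separate cultures or animals, so p-values measure the spread between these samples, which may be technical.

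Libraries held 44332013 to 66518799 counts, and 3 counts, taken as the floor, were 0.0451 to 0.0677 CPM, which are counts scaled to the library's total; this floor covers counting error only. Of the Müller glia markers examined, 6 of 12 had a median over 1 CPM. Among these, Glul was at 61.5 to 94.4 CPM and Sox9 at 63.4 to 292 CPM. Of the others, Rlbp1, Aqp4, Kcnj10 and Gfap stayed at or below 0.302, 0.218, 0.110 and 0.326 CPM in every library. Fibroblast markers (6 of 8) and pericyte or smooth muscle markers (7 of 10) had a median over 1 CPM. Of the RPE, neuronal and endothelial markers, 0 of 7 in each list did. Some fibroblast and smooth muscle markers were far above Glul and Sox9. Col1a2 was at 7041 to 9717 CPM, Col1a1 at 3509 to 4895 CPM, Acta2 at 1502 to 2405 CPM and Pdgfrb at 944 to 1391 CPM. Vim, on the Müller glia list, was at 6063 to 7451 CPM. Fap and Rgs5 stayed at or below 0.521 and 0.404 CPM. Several libraries stood apart from or very close to others. PNU replicates 2 and 3 at 2 h, PNU replicates 2 and 3 at 6 h and all 3 DMSO replicates at 6 h were near-copies of each other, with a coefficient of variation between pairs of 0.0163 to 0.0223 against 0.148 to 0.384 for the other pairs. They still differed beyond counting noise, at 2.01 to 3.24 chi-square units per gene, which repeat preparations from 1 culture could also do. They were kept as separate libraries, so n below counts libraries; with near-copies counted once there would be 2 distinct PNU and 3 distinct DMSO libraries at 2 h, and 2 PNU and 1 DMSO at 6 h. With near-copies summed, edgeR called 0 of 18400 genes in every comparison. DMSO replicate 3 at 2 h and PNU replicate 1 at 2 h lay closest to each other, and PNU replicate 1 at 6 h lay closest to DMSO replicate 3 at 6 h. Transcripts of the Y-linked gene Ddx3y were over 1 CPM in 4 libraries, at 2.23 CPM in PNU replicate 1 at 2 h, 7.43 and 6.74 CPM in PNU replicates 2 and 3 at 6 h, and 5.00 CPM in DMSO replicate 3 at 2 h, and at most 0.141 CPM in the rest. For DMSO replicate 3 at 2 h, PNU replicate 1 at 2 h and PNU replicate 1 at 6 h the nearest library thus carries the other treatment label. Whether these labels are right could not be settled here, and every PNU difference below depends on them. The fits below without both libraries that stood apart left out DMSO replicate 3 at 2 h and PNU replicate 1 at 6 h. They kept PNU replicate 1 at 2 h. DMSO replicates 1 and 2 at 2 h lay closest to DMSO replicate 3 at 6 h, so no DMSO library at 2 h lay closest to its own group.

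Promoter sequences were available for 7 of the 10 genes, in 10 windows of 300 bases around RefSeq transcription starts (GRCm38.p6); those of Nfkb1, Relb and Nfkbiz were not in the table. The letters GGGA, then any 4 bases, then CC, read on both strands, occurred in a window of 6 of the 7 genes, and the κB consensus, which NF-κB dimers bind, in 6 of the 7. For comparison, 22.9% of all 27025 genes with a window held the first motif and 5.14% the second, and 20.7% and 4.51% of all 32851 windows. The motifs overlap each other at several sites, and a gene with several windows has more chances of a match. The 250 bases upstream of the start are printed for Nfkb2, Rel and Tnfaip3, which were higher in all PNU libraries at 6 h, for Nfkbia, the inhibitor with the highest level, and for Rela, which lacked the consensus; capitals mark the matches.
Nfkb2, chr19:46304487-46304736, plus strand: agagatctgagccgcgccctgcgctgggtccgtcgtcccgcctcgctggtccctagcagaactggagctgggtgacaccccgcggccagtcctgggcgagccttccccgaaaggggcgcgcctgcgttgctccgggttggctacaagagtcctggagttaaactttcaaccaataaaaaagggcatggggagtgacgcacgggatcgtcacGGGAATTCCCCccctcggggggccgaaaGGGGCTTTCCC
Rel, chr11:23770970-23771219, minus strand: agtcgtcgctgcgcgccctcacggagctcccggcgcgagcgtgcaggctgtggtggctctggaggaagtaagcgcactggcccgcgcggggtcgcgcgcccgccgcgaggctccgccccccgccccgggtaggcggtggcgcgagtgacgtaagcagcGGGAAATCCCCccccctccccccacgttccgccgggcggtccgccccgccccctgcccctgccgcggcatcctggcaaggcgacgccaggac
Tnfaip3, chr10:19015411-19015660, minus strand: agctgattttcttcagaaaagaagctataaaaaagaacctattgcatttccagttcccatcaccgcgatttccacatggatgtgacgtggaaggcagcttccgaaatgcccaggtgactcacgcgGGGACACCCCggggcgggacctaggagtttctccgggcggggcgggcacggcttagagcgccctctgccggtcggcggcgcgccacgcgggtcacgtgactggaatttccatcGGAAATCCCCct
Nfkbia, chr12:55492648-55492897, minus strand: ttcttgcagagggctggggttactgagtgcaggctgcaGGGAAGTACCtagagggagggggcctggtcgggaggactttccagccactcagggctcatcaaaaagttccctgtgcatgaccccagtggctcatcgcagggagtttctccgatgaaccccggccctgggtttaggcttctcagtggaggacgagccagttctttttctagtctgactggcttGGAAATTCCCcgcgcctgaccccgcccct
Rela, chr19:5637291-5637540, plus strand: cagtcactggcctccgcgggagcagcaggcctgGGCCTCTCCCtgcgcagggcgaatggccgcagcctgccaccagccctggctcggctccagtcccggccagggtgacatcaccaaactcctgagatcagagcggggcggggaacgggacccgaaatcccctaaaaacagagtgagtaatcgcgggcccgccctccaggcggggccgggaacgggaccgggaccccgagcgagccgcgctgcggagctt
A match is a description of the letters and not a measured binding site. Windows of Nfkbie and Bcl3, not printed, held the consensus too. Nfkb2, Rel and Tnfaip3 did not pass the edgeR test at 6 h, and a link between matches and levels was not tested. The Nfkb2 window printed, one of several for this gene, held matches 39 and 11 bases before the start, the Rel window 1 run of overlapping matches 92 bases before it, and the printed Tnfaip3 window matches 125 and 12 bases before it. Nfkbia had matches 212 and 29 bases before its start, of which the nearer fitted the consensus. The match of Rela, 217 bases before the start, fitted the looser letters alone.

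Set per length, as TPM (counts over exon length, scaled to a fixed sum per library), the canonical pathway's subunit and inhibitor had the highest medians. Rela, the transactivating subunit p65, had a median of 118 TPM over the 12 libraries (112 to 132). Nfkbia, the inhibitor IκBα that masks p65, followed with 69.7 TPM (54.6 to 76.4). Nfkb2, whose product p100 both restrains the pathway and yields the subunit p52, had 57.8 TPM (45.7 to 91.9). Nfkbia exceeded it in 8 of 12 libraries, so the order of these neighbours was not fixed. Nfkb2 was the higher in every PNU library at 2 h, at 75.1, 87.2 and 91.9 TPM against 63.2, 67.9 and 69.2 TPM. The same held in PNU replicate 1 at 6 h, at 62.8 against 54.6 TPM. Nfkb1, the precursor of p50, had 25.9 TPM over a long exon model of 12061 bases. Nfkbiz, a nuclear co-factor, had 18.3 TPM and exceeded Relb, the partner of p52 in the non-canonical pathway, in 9 of 12 libraries, at 16.3 TPM for Relb. The lowest levels were those of Nfkbie (the inhibitor IκBε) at 7.52 TPM, Bcl3 (a nuclear co-factor of p50 and p52) at 6.23 TPM, Tnfaip3 (A20, an enzyme that edits ubiquitin on upstream signalling proteins) at 4.31 TPM and Rel (c-Rel) at 2.24 TPM. Nfkbie exceeded Bcl3 in 8 of 12 libraries and Bcl3 exceeded Tnfaip3 in 7 of 12. The other neighbours in this order kept it in 12 of 12. Summed over the 5 subunits, glia facing PNU-treated RPE had 252 to 273 TPM at 2 h, against 202 to 229 TPM with DMSO, and 207 to 228 TPM at 6 h, against 208 to 214 TPM with DMSO. Rela made up 47.7% to 56.1% of that sum and Nfkb2 22.6% to 33.6%.

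**Figure D1:**
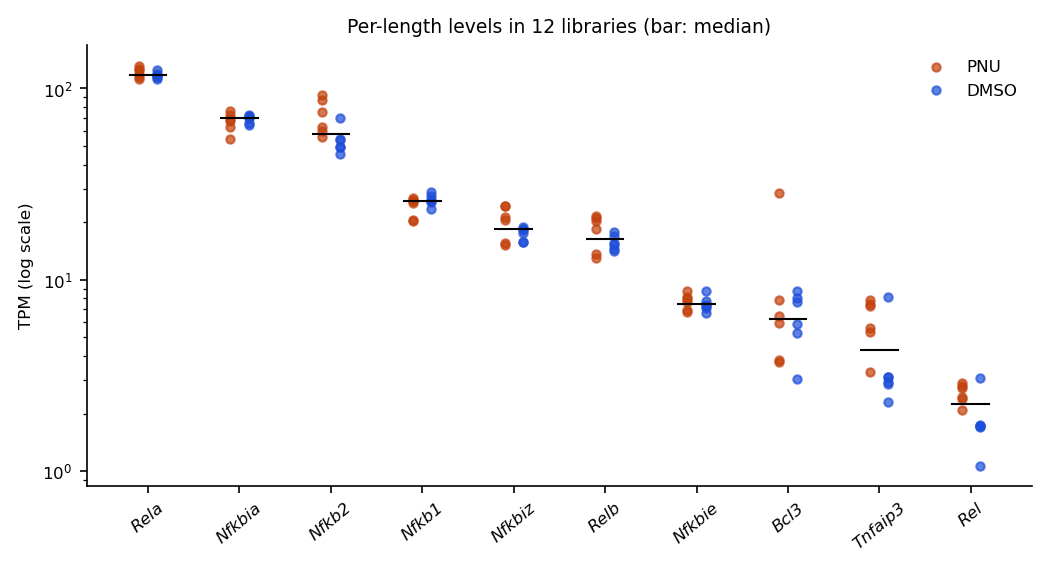
Level of each gene in TPM on a log axis, 1 point per library, with PNU libraries left of DMSO libraries and the median of all 12 as a black bar. Rela was highest with a median of 118 TPM and Rel lowest with 2.24 TPM.

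At 2 h, none of the 10 genes changed past the threshold (edgeR quasi-likelihood test, Benjamini-Hochberg adjusted over all 17164 genes tested), and the highest positive differences were those of Tnfaip3, Nfkb2, Rel and Bcl3. A count of 0 of 10 stands beside 0.291% of all genes called. At an unadjusted p under 0.05 there were 3 of the 10, Nfkb2, Relb and Nfkbiz, against 30.0% of all genes; DESeq2 called 1, Nfkb2, where it called 16.6% of genes, and limma-voom called 0, against 0.437% of genes. The sign was positive for 8 of 10, and the median log2 fold change was 0.37, against -0.01 for all genes tested. In 3 of 10 every PNU library was above every DMSO library, against 9.06% of all genes. Because this is bulk RNA, fewer cells of a type and less RNA per cell cannot be told apart. The summed level of several marker lists was higher in every PNU library than in every DMSO library at 2 h. Such a sum mainly follows the most abundant genes of its list. For microglia and macrophage markers the summed level was 12.8 to 14.3 CPM with PNU and 7.93 to 12.0 CPM with DMSO, 3 of 11 had a median over 1 CPM, none of the 11 was at 0 in all libraries, and the defining marker Ptprc was at most 0.235 CPM. Pericyte and smooth muscle markers summed to 4425 to 4838 CPM with PNU and 3385 to 4296 CPM with DMSO, and 1 of the 8 tested rose, Cspg4 (log2 fold change 0.86 ± 0.15, edgeR adjusted p = 0.0385). Müller glia markers summed to 7425 to 7687 CPM with PNU and 6274 to 7335 CPM with DMSO, with 0 of 8 tested past the threshold. Most of that sum was Vim, at 7036 to 7369 CPM with PNU and 6063 to 7068 CPM with DMSO. The list's median log2 fold change was -0.06, with 4 of 8 positive. For the fibroblast list the median was -0.28, with 1 of 8 positive and 0 past the threshold. The part of these markers in the differences was not tested.

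Among the subunits at 2 h, Nfkb2 (chromosome 19, 46304737 to 46312090 in GRCm38) stood at 86.2, 101 and 106 CPM with PNU, against 67.4, 52.7 and 82.6 CPM with DMSO. The groups did not overlap, though DMSO replicate 3 came close to PNU replicate 1. The log2 fold change was 0.56 ± 0.14 (SE, n = 3 each; 95% interval 0.24 to 0.88), or 1.48-fold, with an edgeR adjusted p of 0.0664. Nfkb2 overlaps Psd, a gene on the other strand at 8.80 to 21.8 CPM, and no source used here states the strand setting of the counting. Relb was at 27.7, 29.5 and 28.7 CPM with PNU and at 24.7, 19.3 and 24.8 CPM with DMSO. All 3 PNU libraries were higher, with a log2 fold change of 0.35 ± 0.14 and an edgeR adjusted p of 0.131. Rel, whose product is prominent in lymphocytes, had 7.56, 7.31 and 7.13 CPM with PNU, against 2.99, 4.44 and 8.18 CPM with DMSO. Here DMSO replicate 3 was above all PNU libraries, and the log2 fold change was 0.53 ± 0.27 (edgeR adjusted p = 0.206). Rela and Nfkb1 lay close together in both groups, at 119 to 125 CPM with PNU and 107 to 127 CPM with DMSO for Rela, and at 107 to 113 CPM with PNU and 101 to 124 CPM with DMSO for Nfkb1. Their 95% intervals were -0.08 to 0.29 for Rela and -0.27 to 0.19 for Nfkb1 in log2. These intervals take near-copies as separate libraries and the labels as right, so a larger change could have been missed.

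**Figure D2:**
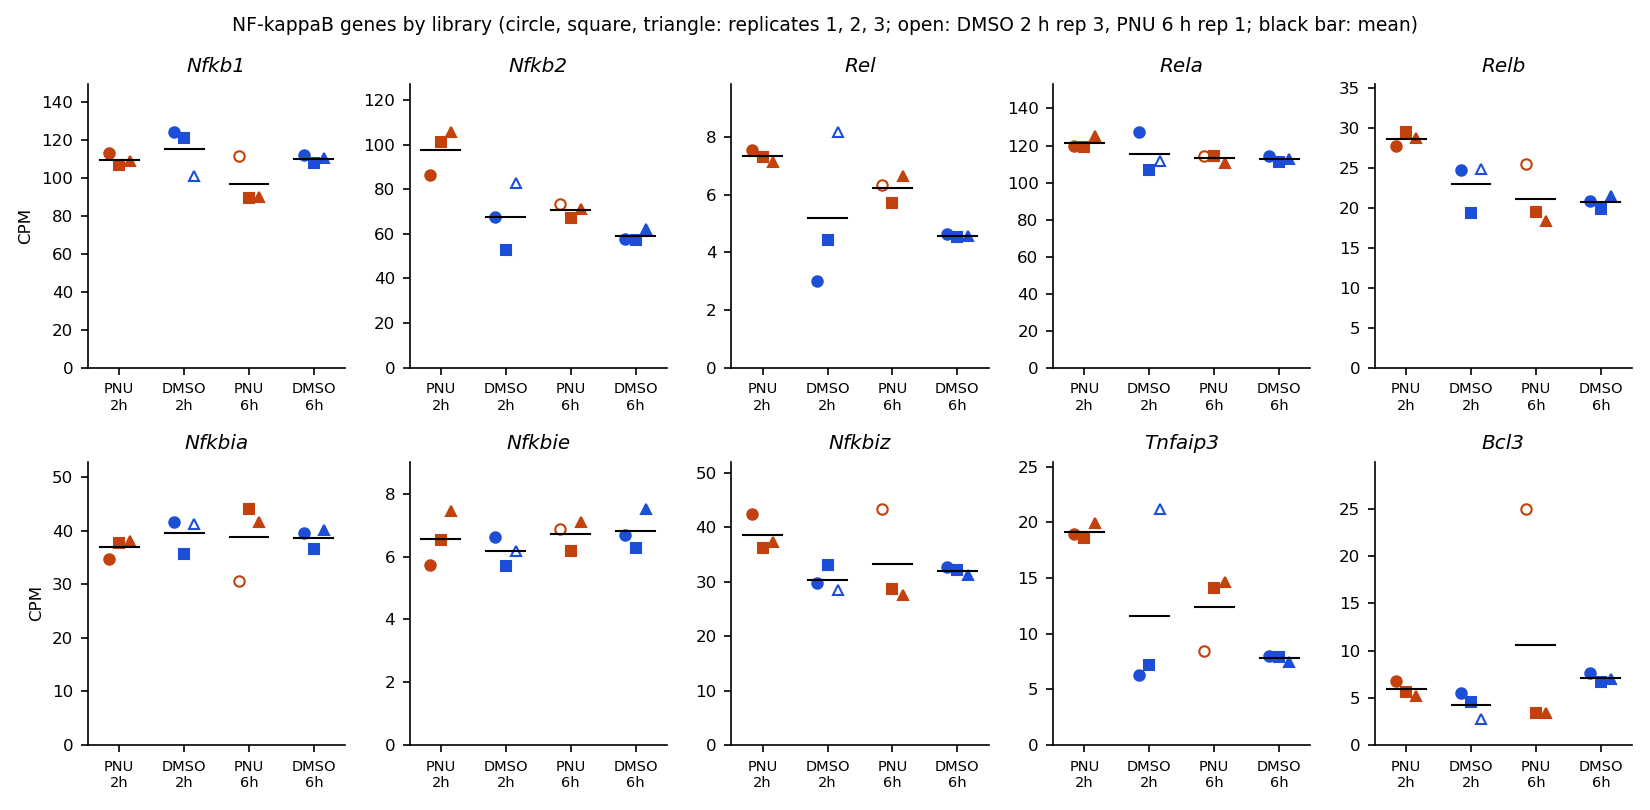
Level of each gene in CPM by library, with PNU groups left of their DMSO groups and the group mean as a black bar; open symbols are DMSO replicate 3 at 2 h and PNU replicate 1 at 6 h. Tnfaip3 in DMSO replicate 3 at 2 h (21.2 CPM) and Bcl3 in PNU replicate 1 at 6 h (25.0 CPM) lie far from the other libraries of their groups.

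Among the inhibitors at 2 h, Tnfaip3 (chromosome 10, 19000910 to 19015657) was at 18.9, 18.6 and 19.9 CPM with PNU, against 6.27, 7.22 and 21.2 CPM with DMSO. The PNU libraries lay together, and the DMSO libraries split, with replicate 3 above them all. The log2 fold change was 0.76 ± 0.38 (SE, n = 3 each; edgeR adjusted p = 0.206). Nfkbiz stood at 42.5, 36.3 and 37.3 CPM with PNU and at 29.7, 33.1 and 28.4 CPM with DMSO. Its groups did not overlap, with a log2 fold change of 0.38 ± 0.15 and an edgeR adjusted p of 0.125. Bcl3 had 6.81, 5.66 and 5.17 CPM with PNU, against 5.49, 4.56 and 2.71 CPM with DMSO, and a log2 fold change of 0.50 ± 0.66 (edgeR adjusted p = 0.620). Nfkbia, a commonly used early reporter of NF-κB activity, was at 34.8 to 38.2 CPM with PNU and 35.7 to 41.6 CPM with DMSO, and its interval in log2 ran from -0.35 to 0.21. Nfkbie was at 5.72 to 7.44 CPM with PNU and 5.71 to 6.64 CPM with DMSO. Neither of these genes separated the groups.

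The 2 h result depended on DMSO replicate 3. Without it, 4 of the 10 genes rose by the same test, Nfkb2, Rel, Relb and Tnfaip3, where 20.9% of all genes rose and 43.8% changed in either direction. Tnfaip3 then had a log2 fold change of 1.55 ± 0.19 (adjusted p = 0.000105) and Rel one of 1.03 ± 0.15 (adjusted p = 0.000273). Nfkb2 had 0.73 ± 0.12 (adjusted p = 0.000707) and Relb 0.41 ± 0.15 (adjusted p = 0.0438), all by edgeR with 3 libraries against 2. Leaving out PNU replicate 1 at 6 h, which enters through the shared estimate of the spread, gave Nfkbiz an adjusted p of 0.0494 at 2 h, where 2.77% of all genes were called. A term for Ddx3y over 1 CPM, coded yes or no, was added to the edgeR fit of all 12 libraries. With it, 2 of the 10 passed, where 18.5% of all genes were called. These were Nfkb2 at 0.57 ± 0.14 (edgeR adjusted p = 0.0292) and Tnfaip3 at 0.98 ± 0.26 (edgeR adjusted p = 0.0320). Among the 2 h libraries with little Ddx3y, Tnfaip3 was at 18.6 and 19.9 CPM with PNU and at 6.27 and 7.22 CPM with DMSO. The PNU libraries of this set, replicates 2 and 3, were near-copies. In the 2 h libraries with Ddx3y over 1 CPM, Tnfaip3 was at 18.9 CPM with PNU and at 21.2 CPM with DMSO.

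**Figure D3:**
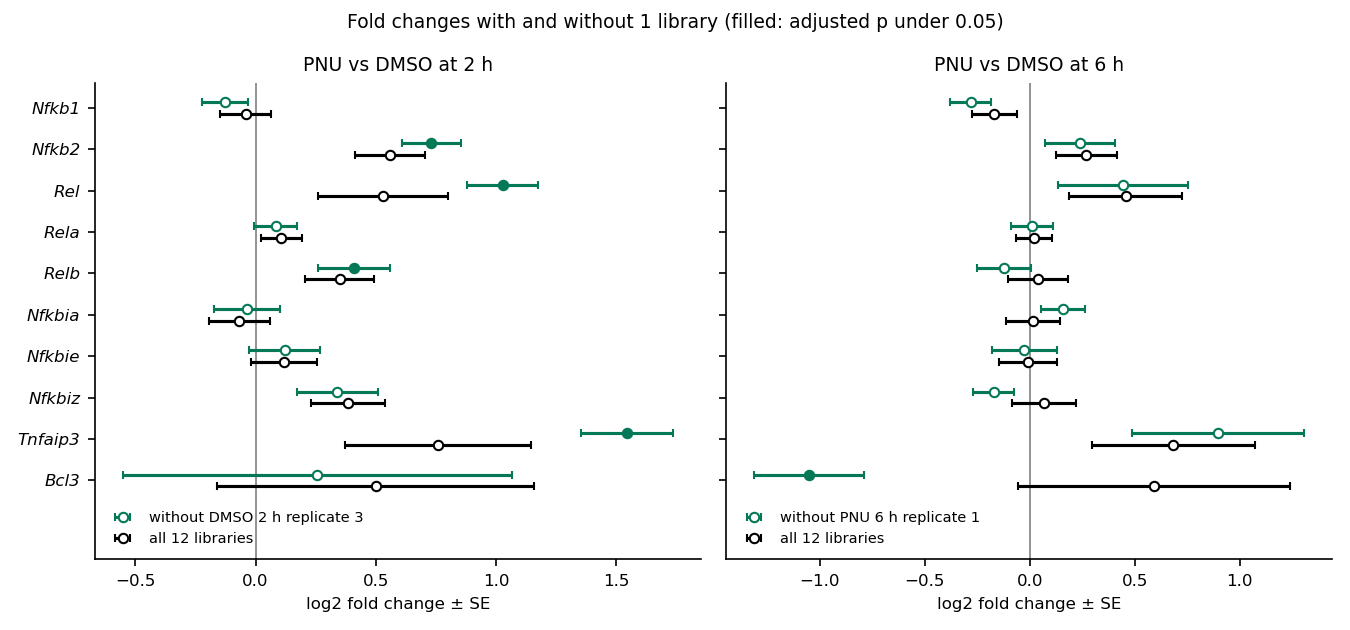
Log2 fold change of PNU over DMSO with its SE for each gene, without 1 library (green) and with all 12 (black), at 2 h on the left and 6 h on the right; filled symbols have an adjusted p under 0.05. Without DMSO replicate 3 at 2 h, Tnfaip3 stood at 1.55, and without PNU replicate 1 at 6 h, Bcl3 stood at -1.05.

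At 6 h, none of the 10 genes passed the edgeR test, against 1.05% of all genes, and none had an unadjusted p under 0.05, against 15.6% of all genes; DESeq2 and limma-voom called 0 of the 10 as well, where they called 5.51% and 1.04% of all genes. Nfkb2, Rel and Tnfaip3 were higher in all 3 PNU libraries than in all 3 DMSO libraries, which held for 14.1% of all genes. The median log2 fold change of the 10 was 0.05, against -0.00488 for all genes tested. Microglia and macrophage markers summed to 13.6 to 20.0 CPM with PNU and 8.51 to 8.78 CPM with DMSO, and 1 of 5 tested rose, Csf1r (log2 fold change 1.81 ± 0.29, edgeR adjusted p = 0.0141). Pericyte and smooth muscle markers summed to 4261 to 4389 CPM with PNU and 3486 to 3542 CPM with DMSO; of 8 tested, 2 rose, Cnn1 by 1.10 and Mcam by 0.47 in log2, and 5 were higher in all PNU libraries. Of 8 fibroblast markers, 2 fell, Dcn by 1.12 and Lum by 4.54 in log2. Lum was near the floor with PNU, at most 0.0777 CPM, against 0.835 to 1.13 CPM with DMSO. In the same list 3 of 8 had a positive log2 fold change, and 2 were higher in all PNU libraries. The list summed to 14950 to 15880 CPM with PNU and 15060 to 15110 CPM with DMSO. The part of these markers in the differences at 6 h was not tested.

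Nfkb2 at 6 h stood at 73.5, 67.1 and 71.1 CPM with PNU, against 57.7, 57.3 and 62.2 CPM with DMSO. All PNU libraries were higher, with a log2 fold change of 0.27 ± 0.14 (SE, n = 3 libraries each; edgeR adjusted p = 0.404). The 3 DMSO libraries and 2 of the PNU libraries at 6 h were near-copies, and with these summed the value was 0.28 ± 0.28. Rel stood at 6.34, 5.71 and 6.63 CPM with PNU and at 4.65, 4.54 and 4.56 CPM with DMSO, a log2 fold change of 0.46 ± 0.27 (edgeR adjusted p = 0.459). Tnfaip3 stood at 8.43, 14.1 and 14.7 CPM with PNU, against 7.99, 7.92 and 7.47 CPM with DMSO. PNU replicate 1 was near the DMSO libraries and replicates 2 and 3, which were nearly identical to each other, were higher; the log2 fold change was 0.68 ± 0.39 (edgeR adjusted p = 0.436). With the Ddx3y term, the Tnfaip3 difference at 6 h was 0.07 ± 0.29 in log2. PNU replicate 1, the PNU library with little Ddx3y, was at 8.43 CPM against 7.47 to 7.99 CPM with DMSO. At 6 h only PNU libraries had Ddx3y over 1 CPM, so the term partly follows the treatment there. Relb was at 25.4, 19.5 and 18.3 CPM with PNU and at 20.9, 19.8 and 21.5 CPM with DMSO. Nfkbiz was at 43.4, 28.7 and 27.6 CPM with PNU and at 32.7, 32.2 and 31.2 CPM with DMSO. In both of these genes PNU replicate 1 was above and the other PNU libraries were below all DMSO libraries. Nfkbia ran the other way, at 30.6, 44.1 and 41.6 CPM with PNU, against 39.5, 36.5 and 40.1 CPM with DMSO. Without PNU replicate 1, the log2 fold changes were -0.12 ± 0.13 for Relb, -0.17 ± 0.10 for Nfkbiz and 0.16 ± 0.10 for Nfkbia, against 0.04 ± 0.14, 0.07 ± 0.15 and 0.02 ± 0.13 with all libraries, and none passed. Rela, Nfkb1 and Nfkbie had log2 fold changes of 0.02 ± 0.09, -0.17 ± 0.11 and -0.01 ± 0.14. Without DMSO replicate 3 at 2 h, which changes the estimate of the spread and not these libraries, Rel and Tnfaip3 passed at 6 h (edgeR adjusted p = 0.0474 and 0.0243), where 9.10% of all genes were called.

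Bcl3 at 6 h depended on 1 library. It stood at 25.0, 3.37 and 3.42 CPM with PNU, against 7.67, 6.65 and 7.01 CPM with DMSO. Replicate 1 was above and replicates 2 and 3 were below all DMSO libraries, and the log2 fold change over all libraries was 0.59 ± 0.65 (edgeR adjusted p = 0.710). Without PNU replicate 1 the direction turned, to -1.05 ± 0.26 (edgeR adjusted p = 0.0429), where 6.00% of all genes were called. Bcl3 overlaps Gm16174 and Gm16175 on the other strand, which reached at most 0.632 and 0.158 CPM. In PNU replicate 1 at 6 h the microglia markers C1qa and C1qb were at 1.95 and 1.02 CPM, against at most 0.0845 and 0.0221 CPM in the other libraries, and the smooth muscle marker Myh11 was at 56.0 CPM, against at most 23.9 CPM. Markers of the same lists went both ways against PNU replicates 2 and 3. Pdgfrb was higher, at 1391 CPM against 944 and 970 CPM. Lower were Acta2 (2008 against 2405 and 2405 CPM), Tagln (359 against 444 and 422 CPM) and Cnn1 (27.7 against 35.7 and 36.7 CPM). Cspg4 (222 against 311 and 324 CPM) and Ptprc (0.0878 against 0.202 and 0.235 CPM) were lower too. Their part in the Bcl3 value was not tested.

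The difference between the PNU effects at 6 h and at 2 h passed for none of the 10 genes (edgeR, against 0.0350% of all genes), and none had an unadjusted p under 0.05, against 11.3% of all genes; DESeq2 and limma-voom called 0 of the 10, and 1.77% and 0.0233% of all genes. The estimates ran from -0.32 ± 0.22 for Nfkbiz to 0.09 ± 0.92 for Bcl3 in log2, with a median of -0.11 against 0.03 for all genes. The comparison has little precision for Bcl3 and Tnfaip3, whose 95% intervals were -1.95 to 2.13 and -1.27 to 1.12. Without DMSO replicate 3 at 2 h, Tnfaip3 passed, at -0.86 ± 0.25 (edgeR adjusted p = 0.0357), where 16.7% of all genes were called. Without that library and PNU replicate 1 at 6 h, 5 of the 10 passed at 2 h, all higher, 4 at 6 h (Rel and Tnfaip3 higher, Nfkb1 and Bcl3 lower) and 5 for the difference, where 52.2%, 28.6% and 21.8% of all genes were called.

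**Figure D4:**
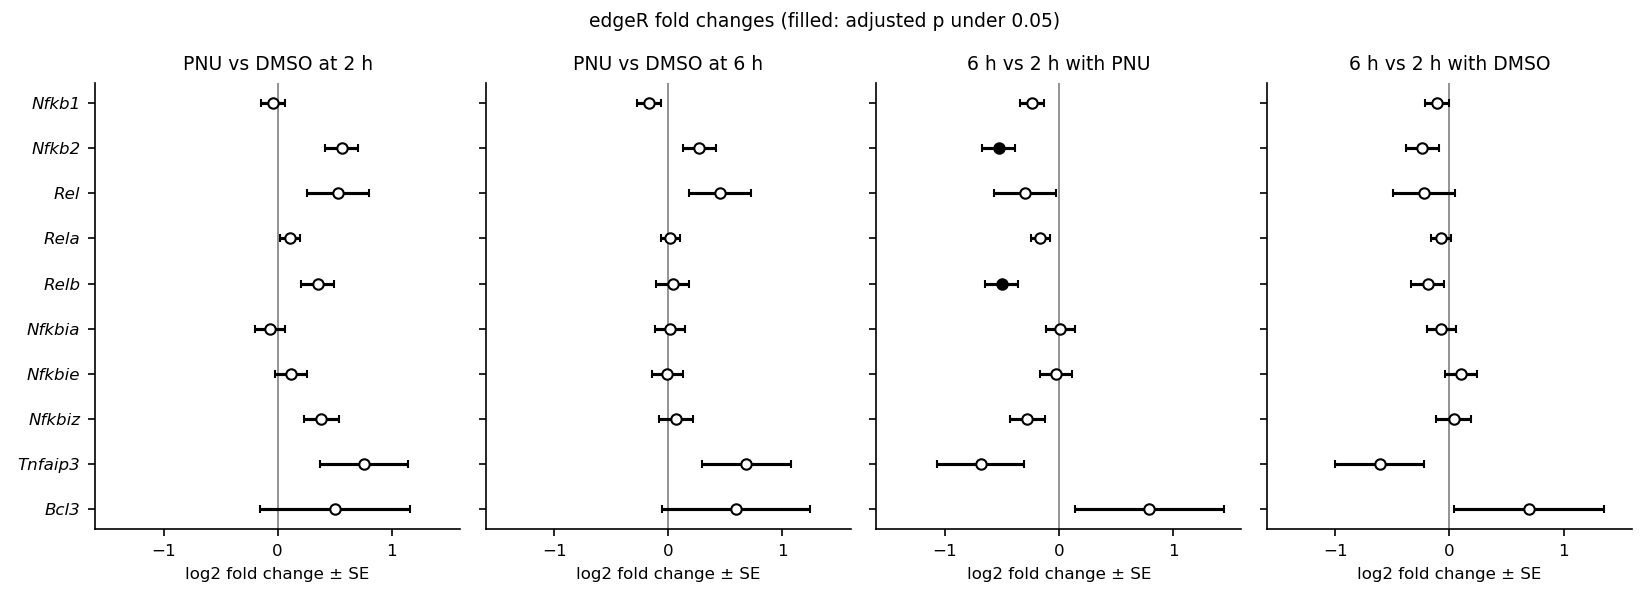
Log2 fold change with its SE for each gene in 4 comparisons, PNU over DMSO at 2 h and at 6 h and 6 h over 2 h with PNU and with DMSO; filled symbols have an adjusted p under 0.05. Nfkb2 and Relb at 6 h against 2 h with PNU passed, at -0.53 and -0.50.

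Between the times, 2 genes changed, and both fell in glia facing PNU-treated RPE. Nfkb2 was at 73.5, 67.1 and 71.1 CPM at 6 h, against 86.2, 101 and 106 CPM at 2 h, a log2 fold change of -0.53 ± 0.14 (SE, n = 3 each; edgeR adjusted p = 0.0337). Relb was at 25.4, 19.5 and 18.3 CPM at 6 h, against 27.7, 29.5 and 28.7 CPM at 2 h, a log2 fold change of -0.50 ± 0.14 (edgeR adjusted p = 0.0370). A count of 2 of 10 lower stands beside 8.66% of all genes lower and 16.1% changed in either direction. By either direction, 2 of 10 is near the background share. DESeq2 and limma-voom called the same pair, among 24.3% and 14.9% of all genes. In 5 of 10, Nfkb2, Rel, Rela, Relb and Tnfaip3, all 6 h libraries were below all 2 h libraries, against 21.0% of all genes. At an unadjusted p under 0.05 there were 3 of 10, against 35.1% of all genes. Without both libraries that stood apart, 6 of 10 passed and 35.4% of all genes were called. The median was -0.26, against 0.03 for all genes. Both calls were lost when near-identical libraries were summed and when any PNU library at 2 h or 6 h or any DMSO library at 6 h was left out, except that Relb passed without PNU replicate 1 at 6 h. The adjusted p ran from 0.00324 to 0.426 for Nfkb2 and from 0.000780 to 0.441 for Relb over 25 alternatives. Other members passed without 1 library: Nfkb1 and Nfkbiz without PNU replicate 1 at 6 h (adjusted p = 0.0484 and 0.0115, 9.71% of all genes called), Tnfaip3 without DMSO replicate 3 at 2 h (0.00715, 34.2%) and Rela without DMSO replicate 1 at 2 h (0.0484, 24.3%). In glia facing DMSO-treated RPE, none of the 10 passed, none of all genes was called by edgeR, and none of the 10 had an unadjusted p under 0.05, against 4.77% of all genes; DESeq2 called 0 of the 10 and 0.159% of all genes. Bcl3 was higher in all 6 h libraries, at 6.65 to 7.67 CPM, than in all 2 h libraries, at 2.71 to 5.49 CPM, which held for 6.12% of all genes. Whether the change with time differed between PNU and DMSO is the test of the difference given above, which passed for no member.

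The rest of the pathway was followed through lists of related genes, described by their counts. At 2 h, 1 gene passed among the 26 tested of 33 targets, where 0.291% of all genes passed. Of 3 other IκB proteins and 11 genes of the IκB kinase complex, related kinases and their partners, 0 passed. Of 17 receptor adaptors, 11 further inhibitors, 13 receptors and 2 ligands, 0 passed as well. The medians of these lists lay between -0.63 for the ligands and 0.15 for the other IκB proteins. At 6 h, 0 passed in all 7 lists, where 1.05% of all genes passed. The gene that passed at 2 h was Cxcl1, a chemokine for neutrophils, at 15.4, 13.5 and 12.9 CPM with PNU, against 25.6, 26.6 and 20.5 CPM with DMSO. It fell by 0.76 on the log2 scale (SE 0.11, edgeR adjusted p = 0.0300). The call was lost in 11 of 25 alternatives, among them the fits without PNU replicate 2 or 3, without DMSO replicate 1 or 2 at 2 h, and without any 1 of the DMSO libraries at 6 h, with adjusted p from 7.42e-08 to 0.550. At 6 h it stood at 38.9, 39.1 and 39.0 CPM with PNU, against 30.4, 29.9 and 30.6 CPM with DMSO, a log2 fold change of 0.38 ± 0.10 that did not pass (edgeR adjusted p = 0.115).

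Other targets gave differences that did not pass the edgeR test over all 12 libraries. Il6, a cytokine, was at 35.0, 23.8 and 22.4 CPM with PNU and 4.37, 6.87 and 17.1 CPM with DMSO at 2 h, with a log2 fold change of 1.56 ± 0.38 (adjusted p = 0.0647). The groups did not overlap, and DMSO replicate 3 was again the highest of its group; without it the value was 2.31 ± 0.21 (adjusted p = 1.59e-05). Vcam1, an adhesion molecule for leukocytes, was at 148, 120 and 122 CPM with PNU and 276, 346 and 171 CPM with DMSO at 2 h, with -0.98 ± 0.20 (adjusted p = 0.0583), and -1.22 ± 0.12 without DMSO replicate 3 (adjusted p = 2e-05). Icam1, another adhesion molecule, was at 0.615, 4.52 and 4.88 CPM with PNU and 0.744, 1.00 and 0.757 CPM with DMSO at 6 h, with 2.01 ± 0.70 (adjusted p = 0.195), and 2.503 ± 0.51 without PNU replicate 1 (adjusted p = 0.0203). Ccl2, a chemokine for monocytes, had 0.23 ± 0.29 at 2 h and -0.21 ± 0.29 at 6 h. Birc3, an inhibitor of apoptosis, had -0.42 ± 0.22 at 2 h and -0.39 ± 0.21 at 6 h.

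Upstream of the subunits, the kinase genes Chuk, Ikbkb and the scaffold Ikbkg had log2 fold changes of 0.32 ± 0.16, -0.15 ± 0.10 and 0.43 ± 0.15 at 2 h, and 0.02 ± 0.16, -0.10 ± 0.10 and 0.26 ± 0.15 at 6 h. Map3k14, the kinase of the non-canonical pathway, had 0.01 ± 0.11 at 2 h and -0.04 ± 0.11 at 6 h. Of the other IκB genes, Nfkbib had 0.15 ± 0.12 and -0.02 ± 0.12 at these times, and Nfkbid, at 0.212 to 0.594 CPM, had 0.27 ± 0.38 and 0.49 ± 0.38. None of these passed. The deubiquitinase gene Cyld was at 38.6, 52.0 and 51.4 CPM with PNU and 34.7, 34.3 and 35.7 CPM with DMSO at 6 h, with 0.45 ± 0.17 (edgeR adjusted p = 0.215), and 0.58 ± 0.17 without PNU replicate 1 (adjusted p = 0.0698). Among the receptors, Tnfrsf1a (for TNF), Il1r1 (for interleukin-1) and Tlr4 (for lipopolysaccharide) were at 182 to 256, 21.9 to 90.2 and 9.83 to 16.5 CPM over the 12 libraries. They had log2 fold changes of -0.10 ± 0.15, 0.48 ± 0.35 and -0.17 ± 0.14 at 2 h, and -0.20 ± 0.15, -0.51 ± 0.35 and -0.02 ± 0.13 at 6 h. Of their ligands, Tnf was at most 0.0466 CPM, Il1b at most 0.0189 CPM and Il1a at most 0.116 CPM, and all were below the test's filter.

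At 6 h against 2 h with PNU, 6 of 26 tested targets changed, 2 higher and 4 lower, where 16.1% of all genes changed, 7.42% higher and 8.66% lower. Tnfaip2 fell by 1.23 on the log2 scale (SE 0.20), at 164, 171 and 174 CPM at 6 h, against 400, 372 and 378 CPM at 2 h. Ier3, an early response gene, fell by 2.17 (SE 0.40), at 37.6, 38.2 and 38.2 CPM at 6 h, against 194, 155 and 144 CPM at 2 h. Il6 fell by 1.23 (SE 0.38), a call lost in 14 of 25 alternatives, and Cxcl1 rose by 1.43 (SE 0.11). Mmp3, a matrix protease, rose by 3.06 (SE 0.64), at 1.12, 11.9 and 11.3 CPM at 6 h, against 0.994, 1.07 and 0.752 CPM at 2 h, and PNU replicate 1 at 6 h lay with the 2 h libraries; without it the rise was 3.58 (SE 0.18). In the other lists Birc2, an inhibitor of apoptosis, rose by 0.74 and the adaptor Traf5 by 0.58, the adaptor Traf6 fell by 0.32, the receptor Tnfrsf1b fell by 0.60 and the cytokine Il18 rose by 1.12, all by edgeR. The calls of Traf5, Traf6 and Tnfrsf1b were lost in 11, 13 and 11 of 25 alternatives, most of them fits without 1 library. All of these calls were lost when near-identical libraries were summed.

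Over the 12 libraries, the 10 genes followed each other to different degrees, and the 45 correlations below are descriptions, since libraries of a group are not independent points and some are near-copies. Rel and Tnfaip3 had the highest Pearson r of scaled log2 CPM, 0.909, followed by Nfkb2 and Relb at 0.865, Nfkb2 and Tnfaip3 at 0.826 and Rela and Relb at 0.815. The lowest were Nfkbia with Bcl3 at -0.773 and Nfkbia with Nfkbiz at -0.672. Of 12721 other genes with a mean of at least 1 CPM, those most like Tnfaip3 included Layn at 0.998 and Idh3a at 0.995. The most like Nfkb1 were Pdxk at 0.977, Sh3rf3 at 0.957 and P2ry6 at 0.948, and the most like Nfkbia were Inafm2 at 0.930, Actb at 0.890 and Suds3 at 0.879.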

How the data were processed

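Poly(A) RNA was sequenced as paired reads of 150 bp, trimmed with fastp 0.23.2, aligned to GRCm38 with STAR 2.5.2b and counted with featureCounts of Subread 1.5.2, per the labels' protocols. DESeq2 appears without a role in the submitters' processing notes. The authors deposited unnormalized count values for each gene; strand use, treatment of multi-mapping reads and annotation release are not given in the sources used here. Groups come from the sample titles. Gene identifiers were paired with symbols through GENCODE M21 (49056 of 49315). CPM are counts over the library's total and TPM use the deposited exon lengths, both computed here.

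The test was edgeR's (version 4.0.16, R 4.3.3; filterByExpr, 17164 genes kept; TMM; robust quasi-likelihood fit of 4 group means over 12 libraries; common biological coefficient of variation 0.198). P-values were adjusted after Benjamini and Hochberg across every tested gene, and 0.05 was the threshold. The SE is the fold change over the square root of F. The fitting script was tested on simulated counts. Alternatives used DESeq2 1.42.0, limma-voom (limma 3.58.1), other scalings and filters, a replicate block, a Ddx3y term, near-identical libraries summed and libraries left out. Libraries counted as near-identical had a coefficient of variation under 0.05. The members and lists were chosen with earlier results of these data known. The rule for named genes took all 10 members, a fixed set of 19 pathway genes, up to 4 passing genes of smallest p per list, and the 3 genes most like Nfkb1, Nfkbia and Tnfaip3, of which 1 is not reported here. Ddx3y, Psd, Gm16174, Gm16175 and the marker genes named were added after values were seen.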

Additional observations from a re-analysis of the deposited data

Results flagged for a closer look

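Cxcl1, a target of NF-κB, had PNU effects that differed between the times by the test of the difference itself: the effect at 6 h minus that at 2 h was 1.14 ± 0.15 in log2 (SE, edgeR adjusted p = 0.0426). At 6 h it stood at 38.9, 39.1 and 39.0 CPM with PNU, against 30.4, 29.9 and 30.6 CPM with DMSO, and at 2 h at 15.4, 13.5 and 12.9 CPM with PNU, against 25.6, 26.6 and 20.5 CPM with DMSO. The PNU libraries were above the DMSO libraries in 3 of 3 at 6 h and below them in 3 of 3 at 2 h. The call was lost in 11 of 25 alternatives, among them the replicate block (adjusted p = 0.0536), scaling by library totals (0.0533) and near-identical libraries summed (1.00). Groups of 3 are too small for a test of single outlying samples.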

How the results depend on the processing

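Of 1250 values (50 member results under 25 alternatives), 1191 kept their side of the threshold, 50 of these with the other sign and neither value past it, 20 lost a call, 35 gained one and 4 turned direction with a call. The number of members called at 2 h (0) became 1 by DESeq2, 2 with the Ddx3y term and 5 without both libraries that stood apart. At 6 h (0) it became 2 with the libraries of the contrast alone (1646 of 16348 genes called) and 4 without both libraries. For the difference between the times (0) it became 5 without both. For 6 h against 2 h with PNU (2) it became 1 with upper-quartile scaling, 0 with near-identical libraries summed, 4 with the contrast alone (5311 of 16564 genes called) and 6 without both. Leaving out each replicate in turn gave 0 to 4 members at 2 h, 0 to 2 at 6 h, 0 to 1 for the difference, 0 for time with DMSO and 0 to 3 for time with PNU. Bcl3 at 6 h ran from -1.05 (without PNU replicate 1) to 1.02 (without PNU replicate 2) with each library left out, and was -1.05 without both libraries, and without both to -1.31 for the difference and -0.85 for time with PNU; the cause was not tested beyond the high value of that library. Titles share replicate numbers only, with correlations of same-numbered samples of -0.0684 to 0.0577, and 1 of 6 samples at 2 h and 4 of 6 at 6 h correlated best with their own number. With the replicate block, 0, 0, 0, 0 and 2 members were called in the 5 comparisons, as without it, and Nfkb2 at 2 h had 0.58 (adjusted p = 0.0519). The lowest count of a member in a library was 173.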

Other observations

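Bcl3 reached 25.0 CPM in PNU replicate 1 at 6 h, and the genes most like it over the 12 libraries, looked up after its values were seen, were Gem, Mt1 and Slc41a1, with Pearson r of 0.948, 0.942 and 0.926.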
